A study of Mus musculus with 2 samples.

Results

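The Meg3 and Rian miRNA genes are 8 hairpin genes on the plus strand of mouse chromosome 12, in the imprinted region between Dlk1 and Dio3. They are Mir770, Mir673, Mir493, Mir337, Mir540, Mir665, Mir341 and Mir370, taken as a list by position, near or within the long non-coding RNA genes Meg3 and Rian. The miRNAs antisense to Rtl1 and those of the Mir379 to Mir410 stretch further along the strand were left out of the list. All 8 were among the 1973 genes with a row in the deposited count files, and all 8 had enough counts to be tested.

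Small RNA fragments shorter than 30 nt had been sequenced from pooled forebrains of B6NCrl mouse embryos of both sexes at 10.5 days of development, with no treatment or genotype named. The only group held 2 libraries, replicate 1 from a pool of 69 embryos and replicate 2 from a pool of 51, so there was no comparison between conditions and the spread between the pools is the replicate error. The labels number them as biological replicates with separate biosample entries and list the same donor for both.

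In placental mammals, the Dlk1-Dio3 region is imprinted, so that many of its genes are used wholly or mainly from 1 parental chromosome. Protein-coding genes such as Dlk1, which encodes a Notch-like membrane protein, and Rtl1, a retrotransposon-derived gene needed in the placenta, are active on the paternal chromosome, while Meg3, Rian and the miRNAs lie on transcripts of the maternal chromosome. A miRNA hairpin is cut from such a long RNA by Drosha and then by Dicer, and 1 or both of its arms are kept as mature miRNAs that find their targets mainly through the seed, bases 2 to 8. Several miRNAs of the region are known from the developing and adult brain.

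The mature sequences below are shown because the seed is what sets each of these genes apart. They come from RefSeq (GRCm38.p6, the mm10 build of the files), which held all 8 genes and both arms of each, and are written 5′ to 3′ in genome order with the seed in capitals.
miR-770-5p: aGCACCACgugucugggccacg
miR-770-3p: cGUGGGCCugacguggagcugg
miR-673-5p: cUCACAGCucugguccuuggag
miR-673-3p: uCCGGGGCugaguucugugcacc
miR-493-5p: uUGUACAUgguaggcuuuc
miR-493-3p: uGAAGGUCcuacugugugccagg
miR-337-5p: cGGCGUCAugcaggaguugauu
miR-337-3p: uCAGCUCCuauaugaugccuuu
miR-540-5p: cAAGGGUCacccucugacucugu
miR-540-3p: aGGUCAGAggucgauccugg
miR-665-5p: aGGGGCCUcugccucuauccaggauu
miR-665-3p: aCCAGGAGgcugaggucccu
miR-341-5p: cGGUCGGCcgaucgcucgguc
miR-341-3p: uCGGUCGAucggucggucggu
miR-370-5p: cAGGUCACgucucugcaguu
miR-370-3p: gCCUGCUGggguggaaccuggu

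The 16 mature arms carried 16 different seeds, so the 8 genes did not form a seed family, and no arm was found in the hairpin of another gene among the 1005 RefSeq hairpins. Outside the list, 3 genes shared a seed with an arm. The seed of miR-370-5p, AGGUCAC, is also that of miR-1193-3p, whose gene Mir1193 lies in the Mir379 to Mir410 stretch and had 2996 CPM in replicate 1 and 3547 CPM in replicate 2. Levels are given as CPM, counts on the strand of the gene scaled to the library total of such counts. The seed of miR-673-5p, UCACAGC, is shared with miR-6985-3p of Mir6985, which had 0 and 1 counts. The seed of miR-540-3p, GGUCAGA, is shared with miR-6915-5p of Mir6915, a gene without a row in the files. The deposited counts are per hairpin gene, so they do not tell which arm the reads came from.

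The mature arms were rich in G and C, with a median of 59.5% against 50% over the 657 mature miRNAs of tested genes. The arms ranged from 40.9% in miR-337-3p to 76.2% in miR-341-5p. The hairpins of the 8 genes had a median of 57.5% G and C, against 50.9% over tested genes, and a median folding energy predicted by RNAfold of −0.52 kcal/mol per nt against −0.43. Mir770 had the most negative value, −0.62, and Mir341 the least negative, −0.44. The letters UGU, which are known to favour Drosha cutting when they stand in the apical loop, occurred between the arms in 3 of the 8 hairpins (Mir673, Mir665 and Mir341) and in 31.5% of the 644 RefSeq hairpins with both arms.

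The hairpins of the genes with the highest counts, Mir337 and Mir341, are given with the mature arms in capitals. They show how unlike each other they are.
Mir337 hairpin: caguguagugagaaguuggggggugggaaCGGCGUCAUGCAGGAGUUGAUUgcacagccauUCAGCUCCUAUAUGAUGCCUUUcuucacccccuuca
Mir341 hairpin: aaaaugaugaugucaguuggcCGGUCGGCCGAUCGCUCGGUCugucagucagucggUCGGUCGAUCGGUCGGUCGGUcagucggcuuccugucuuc

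The hairpin of Mir341 is marked by a short repeat. It held the letters CGGU 7 times, searched on the strand of the RNA only. No other RefSeq hairpin held them more than 3 times, and 11.9% of all hairpins held them at least once. The hairpin of Mir337 held none. No arm of Mir341 or Mir337 was found whole in another RefSeq hairpin. The rest of the genome was not searched, so whether reads of the repeat also map elsewhere is not known.

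In genome order the genes span 54645 bases of chromosome 12 (mm10). Mir770 (ENSMUSG00000076451.1, 109563692 to 109563785) lies within Meg3 (109541001 to 109571726), where it overlaps an exon in 1 of 11 annotated Meg3 transcripts and an intron or the outside of the others. Mir673 (ENSMUSG00000076316.1, 109571990 to 109572080) starts 263 bases after the annotated end of Meg3, and Mir493 (ENSMUSG00000077025.2, 109580233 to 109580315) follows in intergenic sequence. Mir337 (ENSMUSG00000065526.3, 109585789 to 109585885), Mir540 (ENSMUSG00000072900.1, 109586080 to 109586146) and Mir665 (ENSMUSG00000076313.1, 109586314 to 109586407) sit together within 619 bases, also intergenic in GENCODE M21. Mir341 (ENSMUSG00000070101.1, 109611500 to 109611595) and Mir370 (ENSMUSG00000065433.1, 109618258 to 109618336) lie in introns of Rian (109603940 to 109661716). For Mir337 and Mir540 the files list an earlier version of the gene than M21, so the counted interval may differ slightly from the one given.

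The 8 genes together held 33992 of 3256070 gene-strand counts in replicate 1 and 43921 of 3574530 in replicate 2. These are shares of 1.04% (95% exact Clopper-Pearson interval 1.03 to 1.06) and 1.23% (1.22 to 1.24), or 1.14% ± 0.13 (SD, n = 2). The intervals do not overlap, but here and below they leave out every error other than counting, and PCR copies of 1 molecule are counted as separate reads. Multi-mapped reads, 30.1% of all reads in replicate 1 and 28.8% in replicate 2, were assigned to no gene.

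Mir337, which makes miR-337-5p and miR-337-3p, was the most abundant of the 8. It had 9485 counts in replicate 1 and 11644 in replicate 2, or 2913 and 3257 CPM (3085 ± 244, SD, n = 2), and ranked 61 of all 1973 genes. Mir341 followed with 8086 and 10612 counts, or 2483 and 2969 CPM (2726 ± 343), at rank 65. The level of Mir341 in replicate 2 was above that of Mir337 in replicate 1, so across libraries the pair overlap. Within each library Mir337 was higher, by 1.17-fold in replicate 1 (95% exact interval 1.14 to 1.21) and 1.10-fold in replicate 2 (1.07 to 1.13), by counting error alone. Together they gave 51.7% of the counts of the 8 genes in replicate 1 and 50.7% in replicate 2.

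A middle tier was formed by Mir540, Mir665 and Mir370. Mir540 had 5341 and 6518 counts, or 1640.3 and 1823 CPM (1732 ± 129). Mir665 had 4212 and 5832 counts, or 1294 and 1632 CPM (1463 ± 239), and Mir370 of the Rian intron had 3810 and 5270 counts, or 1170.1 and 1474 CPM (1322 ± 215). Both libraries of Mir540 were below both libraries of Mir341 and above both of Mir665, although the highest library of Mir665, 1632 CPM, came close to the lowest of Mir540, 1640.3 CPM. Mir665 and Mir370 overlapped across libraries.

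The lowest tier held the 3 genes at the 5′ end of the list. Mir770 had 1067 and 1468 counts, or 328 and 411 CPM (369 ± 58.7). Mir673 had 1050 and 1361 counts, or 322 and 381 CPM (352 ± 41.2), and Mir493 had 941 and 1216 counts, or 289 and 340.2 CPM (315 ± 36.2). Their ranges over the libraries overlapped. The within-library ratio of Mir770 to Mir673 was 1.02 in replicate 1 (0.93 to 1.11), where no difference was detectable at this depth, and 1.08 in replicate 2 (1.00 to 1.16), where the lower bound was just above 1. Mir673 exceeded Mir493 beyond counting error in both, by 1.12-fold (1.02 to 1.22) and 1.12-fold (1.04 to 1.21). The gap above them was the widest step in the order, since Mir370 exceeded Mir770 by 3.57-fold in replicate 1 (3.34 to 3.83) and 3.59-fold in replicate 2 (3.39 to 3.81). The 3 genes gave 9.0% and 9.21% of the counts of the 8, and from Mir337 to Mir493 the range was 10.1-fold in replicate 1 and 9.58-fold in replicate 2.

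**Figure D1:**
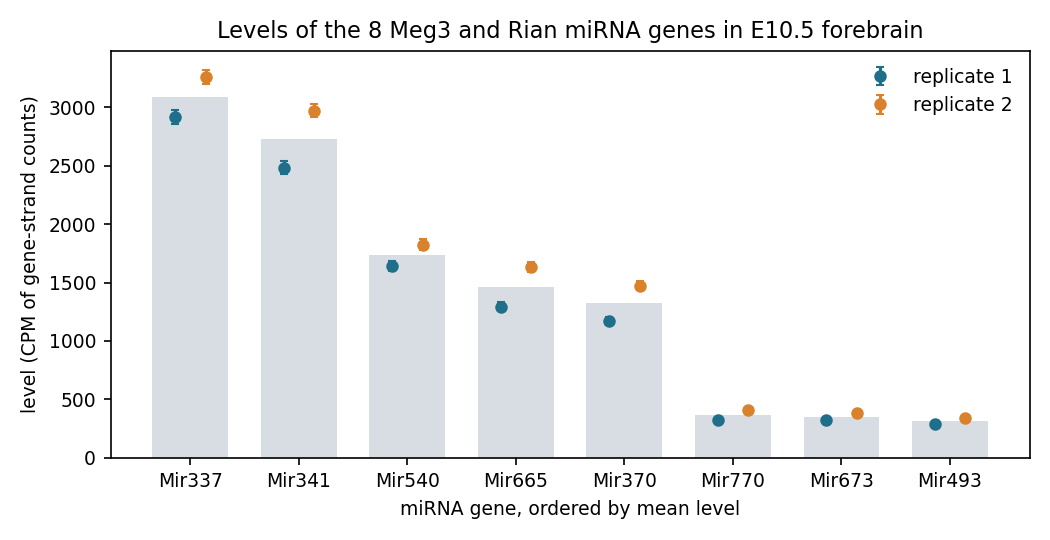
Levels of the 8 genes in CPM of gene-strand counts, ordered by their mean. Bars are means of 2 libraries, points are the libraries, and whiskers are exact 95% intervals that cover counting error. The point of replicate 2 is above that of replicate 1 for each gene, and Mir770, Mir673 and Mir493 lie between 289 and 411 CPM.

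The order of the 8 was the same in both libraries. Since the libraries hold fragments of mature length (the 16 arms measure 19 to 26 nt), CPM was not divided by gene length. Dividing by hairpin length, an alternative chosen after the values were seen, exchanged Mir665 and Mir370, at 1556 and 1674 CPM per 100 nt, and left the other 6 genes in place. All 8 means were above the median of the 401 tested genes, 161 CPM, and the median of the 8 was 1392 CPM.

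Close neighbours on the strand had unlike levels. Mir337, Mir540 and Mir665 are separated by 194 and 167 bases and had 3085, 1732 and 1463 CPM, and the pair within Rian, 6662 bases apart, had 2726 and 1322 CPM. Mir493, 5473 bases before Mir337, had 315 CPM. The log2 ratio of summed counts of the Rian pair to those of the 6 genes on the Meg3 side was −0.89 in replicate 1 (95% exact interval −0.93 to −0.86) and −0.82 in replicate 2 (−0.85 to −0.79). The sums hold 2 genes against 6, and the median level per gene ran the other way, at 2024 CPM for the Rian pair and 916 CPM for the Meg3 side. The ratio also moved with single genes, from a mean of −0.86 to −0.065 without Mir337 and to −2.47 without Mir341.

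The other plus-strand miRNA genes of the interval that belong to no list had far fewer counts than the 8. The Rtl1-antisense genes, which also lie between Mir665 and Mir341, are described with the other lists of the region. Mir1188 starts 226 bases after the end of Mir341 also in an intron of Rian, and had 98 and 99 counts, or 30.1 and 27.7 CPM. Mir341 exceeded it by 82.5-fold in replicate 1 (95% exact interval 67.6 to 102) and by 107-fold in replicate 2 (88.0 to 132). Mir3070a, between Mir665 and the Rtl1-antisense genes, had 26 and 31 counts, and Mir3070b had 2 and 4. Gm23912, which ends 57 bases before Mir370, had 0 and 1 counts. Mir882, between Mir370 and Mir379, and Mir1906-1, which overlaps Meg3 exons and was named after its values were seen, had no count in either library. A count of 0 allows up to 0.92 CPM in replicate 1 and 0.84 CPM in replicate 2. Multi-mapped reads were assigned to no gene, so these counts and limits cover uniquely placed reads only.

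**Figure D2:**
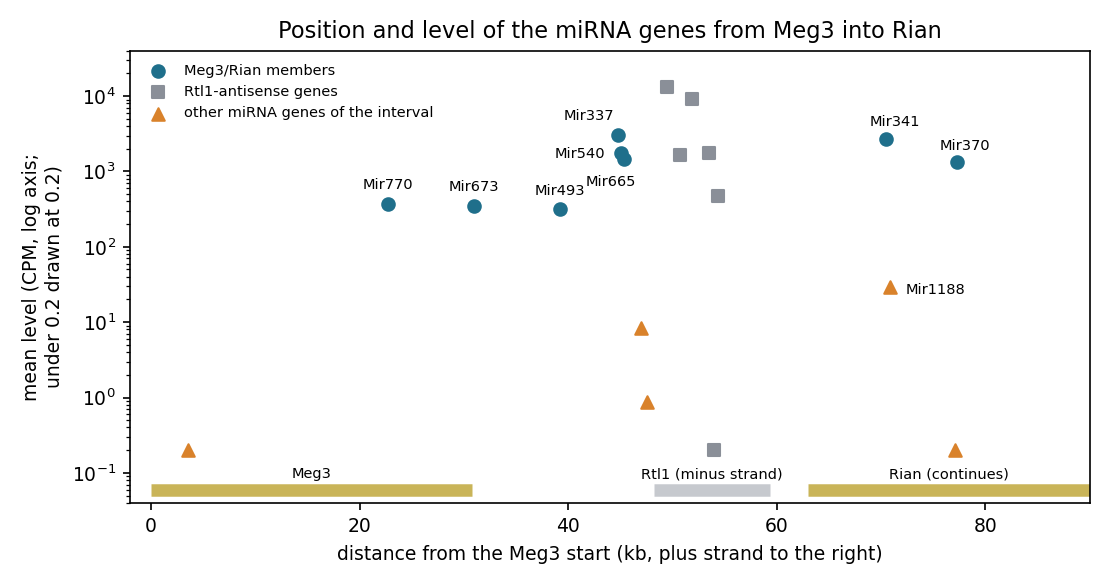
Mean level in CPM (log axis) against distance from the Meg3 start in kb, for the 8 genes (circles), the Rtl1-antisense list (squares, of which Mir3071 is on the minus strand in GENCODE M21) and other miRNA genes of the interval (triangles). Horizontal bars mark Meg3, Rtl1 and the start of Rian. Mir341 at 2726 CPM and Mir1188 at 28.9 CPM stand almost at the same position. Mir1906-1 and Mir432 had no count and Gm23912 had 0.14 CPM, and these 3 are drawn at 0.2.

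Nearly all reads at the 8 genes lay on the strand of the hairpin. The gene-strand share was 99.94% in replicate 1 (95% exact interval 99.91 to 99.96) and 99.95% in replicate 2 (99.92 to 99.97), against 96.7% and 96.4% over all genes. In the Rtl1-antisense list and the Mir379 to Mir410 stretch, every plus-strand gene with counts had a share of 100% in both libraries. The figure over all genes takes in rows such as Mir299b, with 7936 and 9553 opposite-strand counts against 6 and 10 on its own strand. For 7 of the 8 genes no opposite-strand read was counted. Mir337 had 20 and 22 opposite-strand counts. RefSeq places Mir3544, a hairpin of the minus strand without a row in the files, inside Mir337 (109585813 to 109585873).

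Each of the 8 genes had a lower level in replicate 1 than in replicate 2. An exact two-sided binomial test compared the split of each gene's counts with that of the TMM-scaled library sizes, and its p-values were adjusted by Benjamini-Hochberg over 401 genes. It compares these 2 libraries, not conditions, and knows counting error alone. By this test 8 of 8 were lower in replicate 1, while over all 401 tested genes 23.7% were called lower in replicate 1 and 43.4% were called in either direction. Calls depend on depth. At a mean count of 100 or more, which all 8 passed, 59.8% of 271 genes were called in either direction. The share called lower in replicate 1 was not computed at that filter. The median log2 ratio of the 8 was −0.28, and that of all tested genes was −0.03. The 8 ratios lay between −0.37 and −0.18, where the lower quartile of all tested genes was −0.19 and the 5th percentile −0.54.

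Here and below, fell and rose mean a lower or higher level in replicate 1 than in replicate 2, with amounts as log2 ratios. Among the genes of the Meg3 side, Mir665 fell by 0.37 (95% exact interval −0.42 to −0.31, adjusted p = 2.6e-35, exact binomial test). Mir770 fell by 0.36 (−0.47 to −0.24, adjusted p = 3.2e-09, exact binomial test). Mir673 and Mir493, the genes with the fewest counts, fell by 0.27 and 0.27, with the widest intervals of −0.39 to −0.15 and −0.39 to −0.14 (adjusted p = 1.8e-05 and 7.4e-05, exact binomial test). Mir337 fell by 0.19 (−0.23 to −0.15, adjusted p = 4.7e-21) and Mir540 by 0.18 (−0.24 to −0.13, adjusted p = 2.8e-11, exact binomial test).

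In Rian, Mir370 fell by 0.36 (95% exact interval −0.42 to −0.30, adjusted p = 9.4e-32, exact binomial test). Mir341 fell by 0.29 (−0.33 to −0.25, adjusted p = 7.2e-41, exact binomial test). The intervals of Mir337 and Mir540 did not overlap those of Mir665, Mir341 and Mir370, and the interval of Mir665 did not overlap that of Mir540 167 bases upstream of it. The differences between genes were not themselves tested. In linear terms the level in replicate 1 was between 0.78 and 0.88 of that in replicate 2.

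**Figure D3:**
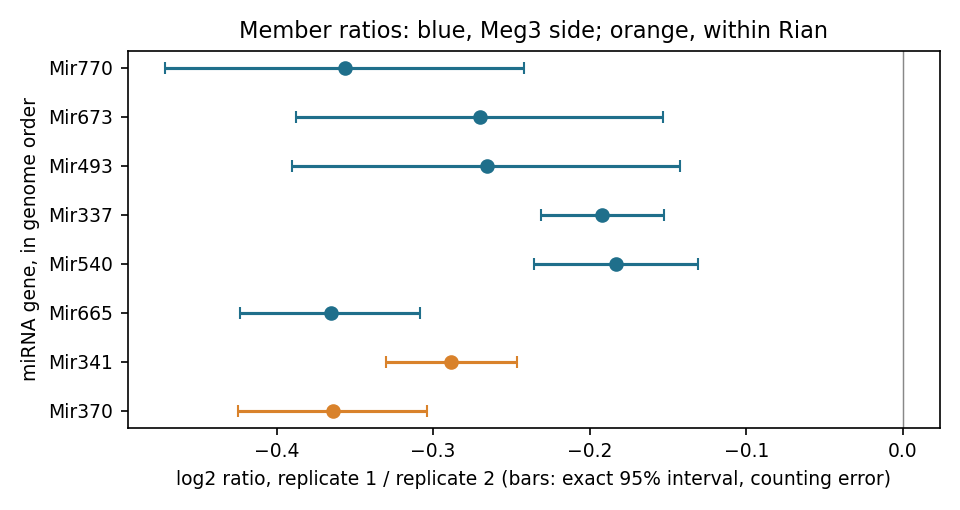
Log2 ratio of replicate 1 to replicate 2 for the 8 genes in genome order, with exact 95% intervals for counting error. Blue points are genes on the Meg3 side and orange points are genes within Rian. All 8 intervals lie below 0, and Mir337 and Mir540 lie nearest to it, at −0.19 and −0.18.

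The neighbouring miRNA lists of the region also had median ratios below 0. Of the Rtl1-antisense list, the miRNAs transcribed across the Rtl1 gene, 5 of 7 were tested, of which 4 fell and 1 rose, with a median log2 ratio of −0.23 and a range of −0.28 to 0.16. The gene that rose was Mir433, with 5819 counts in replicate 1 and 5606 in replicate 2, a log2 ratio of 0.16 (adjusted p = 2.5e-08, exact binomial test), and it was named after its values were seen. Of the Mir379 to Mir410 stretch, 30 of 38 were tested, of which 25 fell and none rose, with a median of −0.23 and a range of −0.40 to 0.12. Mir1188, next to Mir341, had a log2 ratio of 0.09 with an interval of −0.33 to 0.51 and did not pass the test (adjusted p = 0.83, exact binomial test). At its depth a ratio of the size of Mir341 lies inside that interval. No test of the difference between lists was made.

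**Figure D4:**
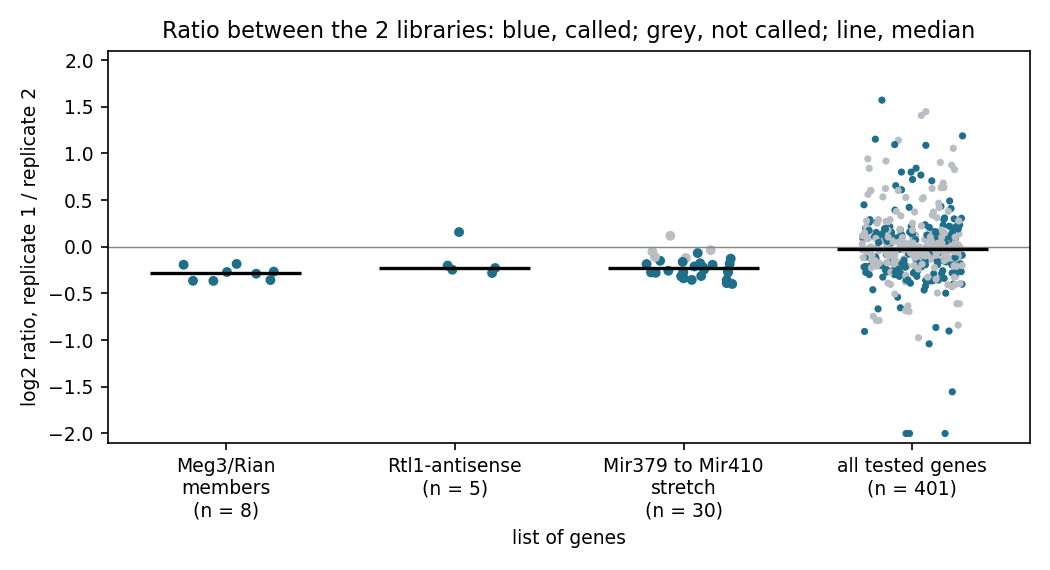
Log2 ratio of replicate 1 to replicate 2 for the 8 genes, the 2 neighbouring lists and all tested genes, each point a gene. Blue points passed the exact binomial test, grey points did not, and lines are medians. The medians of the 3 lists of the region lie at −0.28, −0.23 and −0.23 and that of all tested genes at −0.03, and 3 genes beyond an absolute value of 2 are drawn at that edge.

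Within the region the share of the 8 genes differed between libraries by no more than counting error. They held 9.70% of the counts of the 3 lists in replicate 1 (95% exact interval 9.60 to 9.79) and 9.77% in replicate 2 (9.68 to 9.86), intervals that overlap. The Rtl1-antisense list held 2.46% and 2.82% of all gene counts, led by Mir431 with 13330.2 ± 1630.0 CPM and Mir127 with 9170.2 ± 883 CPM. The Mir379 to Mir410 stretch held 7.27% and 8.53%, led by Mir487b with 15551 ± 1881 CPM and Mir411 with 11804 ± 2115 CPM. Mir337, the highest of the 8, thus had a level below those 4 leaders in both libraries. Mir136, Mir299a, Mir380, Mir376a, Mir376b and Mir409 had no row under their M21 identifiers, so the shares of the region leave those identifiers out. In M21 Mir299a spans the row Mir299b, which lies on the other strand. The 7936 and 9553 opposite-strand counts of Mir299b are also outside these totals. With them in the totals, the share of the 8 genes would be lower in both libraries. Which hairpin those counts come from was not tested. The row named Mir3071, 1 of the 4 Rtl1-antisense rows that fell, carries an earlier gene version than M21. In M21 it spans Mir136, which lies on the other strand. It had 1450 and 1792 gene-strand counts and 0 opposite-strand counts, so it may hold counts of Mir136. Which hairpin it counts was not tested.

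The genes most like the highest 2 were sought by distance in the plane of log2 mean CPM and log2 ratio, over 2 libraries and 401 genes. Nearest to Mir337 were Mir425 of chromosome 9, at a distance of 0.04 with 2999 and 3266 CPM, and then Mir381 and Mir1193 of the Mir379 to Mir410 stretch, at 0.11 and 0.12. Nearest to Mir341 were Mir337 at 0.20, Mir323 of the same stretch at 0.22 and Mir425 at 0.24. With 2 libraries, such likeness is a description of level and ratio only.

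The marker lists of cell types had calls in both directions, to be read beside the 19.7% of tested genes that rose and the 23.7% that fell in replicate 1. Neural progenitor markers summed to 51502 CPM in replicate 1 and 44628 CPM in replicate 2, with 5 of 6 tested genes rising and none falling. Most of that sum came from Mir99a (31196 and 26882 CPM) and Mir92b (19407 and 17048 CPM). Mir9-2, the only tested gene of this list that did not pass the test, had 5.84 and 5.32 CPM. The other Mir9 gene with a row was among those that rose. Neuronal markers summed to 619 and 450.4 CPM, with 3 of 5 rising. Markers of pluripotent cells and the early embryo summed to 22383 and 27332 CPM with 4 of 8 falling. The 4 were Mir302a to Mir302d, which held 22281 and 27225 CPM, while none of the 4 others tested, Mir367 and 3 genes of the miR-290 cluster, passed the test. The endothelial Mir126a had 29029 and 31930 CPM and fell, erythroid markers had 693 and 792 CPM with 1 of 3 falling, mesenchymal markers had 7333 and 6995 CPM with 1 of 4 rising, and hindbrain and trunk markers had 237 and 297 CPM with 2 of 4 falling. Liver had 10.7 and 9.79 CPM and muscle 2.76 and 2.24 CPM, with Mir133a-1, Mir133a-2 and Mir1a-1 at 0. Multi-mapped reads were assigned to no gene. A 0 or low count at genes with copies, as in Mir133a, Mir1a, Mir9 and Mir124a, thus does not show absence. The part of these marker values in the ratios of the 8 genes was not tested, and in pooled tissue fewer cells of a type and less RNA per cell cannot be told apart.

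As background, Meg3 and RNAs that follow it are thought to be read largely from the Meg3 promoter. No value here measures that promoter, and whether it bears on the ratios was not tested. The RefSeq window from 250 bases before to 50 after the first Meg3 start is shown for its sequence, chr12:109540746-109541045 of GRCm38.p6, plus strand. Capitals mark the letters of a CCAAT box, a cAMP response element and a TATA box.
Meg3 promoter: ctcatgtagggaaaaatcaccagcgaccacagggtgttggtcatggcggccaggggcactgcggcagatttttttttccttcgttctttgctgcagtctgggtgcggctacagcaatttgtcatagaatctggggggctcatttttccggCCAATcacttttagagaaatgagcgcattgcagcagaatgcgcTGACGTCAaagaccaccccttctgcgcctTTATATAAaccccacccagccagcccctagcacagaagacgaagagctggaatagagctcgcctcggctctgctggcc

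Searched on both strands, TGACGTCA, the cAMP response element, occurred once, from base 194 of the window, and in 1.79% of 32851 RefSeq promoter windows of this length. CCAAT occurred from base 151 and in 37.4% of windows. TATATAA occurred on the plus strand with an overlapping match on the minus strand, and in 3.24% of windows. None of the 3 was found in the window of Rian or in that of a later Meg3 start. The Meg3 window held 13 CG sites and that of Rian none. These matches describe the letters of the windows, and the small RNA counts do not measure transcription from them.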

How the data were processed

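Small RNA of 2 libraries of 1 group was measured. For each gene the authors deposited 3 columns of whole-number counts, not normalized, after 4 tallies of reads in no gene. The columns carry no names. From their values they were read as either strand, the strand of the gene (most counts) and the opposite strand, since the last pair add up to the first for every gene. The build was mm10 and the annotation M4, per the deposited notes. Aligner, trimming and counter: not given in the sources used here. Gene-strand counts were used, 3256070 in replicate 1 and 3574530 in replicate 2. The tallies were left out of library sizes.

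Identifiers were matched to GENCODE M21 without their version, 1894 of 1973, and 1815 with the same version. CPM used the total of gene counts. Log2 ratios used edgeR 4.0.16 (R 4.3.3) TMM factors over genes whose mean count reached 10, and a pseudocount of 0.5 counts. The exact binomial test, two-sided, was adjusted by Benjamini-Hochberg over 401 genes with a threshold of 0.05. It was tested on simulated counts that vary by counting error alone (Poisson), so the simulation does not cover the spread between pools or PCR copies. A count of 0 was taken to allow 3 counts. Alternatives were total scaling, DESeq2 1.42.0 size factors, other filters, pseudocounts, strands, denominators and Holm adjustment. Hairpins were folded with RNAfold 2.7.2, and tests used scipy 1.17.1 under Python 3.11.15.

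The 8 genes, the neighbouring lists and the marker lists were chosen with earlier results of these data known. The named genes were all 8, the 2 highest of each neighbouring list, other plus-strand miRNA genes of the interval up to Mir379, the 3 nearest genes to the highest 2, and genes that share a seed. The promoter motifs and the CGGU and UGU searches were chosen after the sequences were seen.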

Additional observations from a re-analysis of the deposited data

Results flagged for a closer look

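Mir337 had opposite-strand counts of 20 in replicate 1 and 22 in replicate 2, in a column that the levels and ratios do not use and above the 3 counts that a count of 0 allows. The other 7 genes had none. The source of these reads was not tested.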

How the results depend on the processing

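All 8 genes stayed called, lower in replicate 1, under total-count scaling, DESeq2 size factors, no filter on low counts, a mean count of 100 or more, counts on either strand and Holm adjustment, with a largest adjusted p of 0.0062 over these 48 recomputed ratios. The share of all tested genes called ran from 23.0% without a filter to 59.8% at a mean count of 100. Holm adjustment called 124 genes of 401. The median log2 ratio of the 8 was −0.25 with total-count scaling, −0.25 with DESeq2 size factors, −0.30 without a filter and −0.26 at a mean count of 100, since each setting changes the scaling factors. With all reads as the denominator, unmapped and multi-mapped reads included, the share of the 8 was 0.426% and their median level 521 CPM. Without Mir337 the share was 0.828% and the log2 ratio of the Rian pair to the Meg3 side −0.065. Leaving out the other genes in turn, chosen after seeing the data, gave that ratio as −0.78 without Mir770, −0.79 without Mir673, −0.79 without Mir493, −0.47 without Mir540, −0.54 without Mir665, −2.47 without Mir341 and −1.43 without Mir370. With either library alone the median level was 1232 or 1553 CPM, the share 1.04% or 1.23% and the Rian to Meg3 ratio −0.89 or −0.82, which with 2 libraries is within 1 SD of the mean by construction. Ratios between libraries cannot be had from 1 library. Dividing by hairpin length kept 6 of 8 places in the order. With 2 pools, the replicate error rests on 1 difference per gene.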
